A study of Mus musculus with 16 samples.

Results

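The 10 genes described here, all of the cardiomyocyte Z-disc and intercalated disc, were followed across 16 ventricle samples of neonatal mice: Xirp1, Xirp2, Csrp3, Nebl, Ldb3, Fhl1, Fhl2, Des, Actn2 and Ttn. They were chosen by symbol, with earlier results of these data known, and each of the 10 symbols matched 1 Ensembl gene among the 22468 genes of the count table. The samples form 4 groups of 4. Wild-type (WT) mice and mice lacking Chrna7 (KO, Jax strain #003232), which encodes the alpha7 nicotinic acetylcholine receptor, each had either sham surgery or a surgically induced myocardial infarction (MI). The tissue was the full ventricle, from above and below the ligation, so infarcted and remote muscle were homogenised together. The labels do not give the exact age, the time after surgery, the sex, the litter, the background strain, or whether each sample was a separate animal, so every p-value below measures only the spread between these samples.

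The Z-disc is the lattice that anchors actin filaments of neighbouring sarcomeres, and the intercalated disc is the junction that joins cardiomyocytes end to end and carries force between them. Alpha-actinin 2 (Actn2) is the main cross-linker of the Z-disc, titin (Ttn) is the giant spring that spans from Z-disc to M-band, and desmin (Des) is the intermediate filament that ties Z-discs to one another and to the membrane. The remaining members are adaptors of these structures: nebulette (Nebl), Cypher/ZASP (Ldb3), muscle LIM protein (Csrp3), the LIM-only proteins Fhl1 and Fhl2, and the Xin repeat proteins Xirp1 (Xin) and Xirp2 (myomaxin), which bind actin and sit at the intercalated disc; several of them are known as responders to mechanical load.

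Much of this gene class is controlled in muscle by serum response factor, which binds CArG boxes (CC, a run of A or T, then GG), and by MEF2 factors, which bind an A/T-rich site. RefSeq promoter windows (GRCm38.p6) were found for 9 of the 10 genes, 16 windows of 300 bases in all. For 5 genes called in a comparison below, 1 window that holds either motif is shown over the 250 bases before the start site, 5′ to 3′ on the strand of the gene, with motif matches in capitals:
Xirp2 (chr2:67445752-67446001, plus strand): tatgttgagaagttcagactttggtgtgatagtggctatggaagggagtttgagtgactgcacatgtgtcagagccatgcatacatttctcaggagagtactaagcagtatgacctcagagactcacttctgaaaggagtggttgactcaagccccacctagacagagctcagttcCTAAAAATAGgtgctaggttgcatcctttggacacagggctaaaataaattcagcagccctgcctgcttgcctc
Ttn (chr2:76982548-76982797, minus strand): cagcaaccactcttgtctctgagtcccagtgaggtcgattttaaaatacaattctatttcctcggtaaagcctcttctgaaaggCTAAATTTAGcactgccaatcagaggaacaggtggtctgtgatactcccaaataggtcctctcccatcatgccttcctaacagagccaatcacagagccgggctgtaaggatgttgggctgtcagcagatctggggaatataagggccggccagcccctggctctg
Fhl2 (chr1:43196762-43197011, minus strand): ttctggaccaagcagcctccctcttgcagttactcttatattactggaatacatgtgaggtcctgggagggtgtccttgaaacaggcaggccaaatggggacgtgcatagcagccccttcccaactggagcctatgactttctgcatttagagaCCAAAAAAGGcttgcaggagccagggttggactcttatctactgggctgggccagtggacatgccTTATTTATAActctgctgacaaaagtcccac
Ldb3 (chr14:34588682-34588931, minus strand): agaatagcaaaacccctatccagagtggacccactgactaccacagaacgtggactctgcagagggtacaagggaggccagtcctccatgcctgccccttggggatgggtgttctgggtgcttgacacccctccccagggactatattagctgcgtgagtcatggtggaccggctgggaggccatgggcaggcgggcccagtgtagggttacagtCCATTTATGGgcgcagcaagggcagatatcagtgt
Fhl1 (chrX:56779433-56779682, plus strand): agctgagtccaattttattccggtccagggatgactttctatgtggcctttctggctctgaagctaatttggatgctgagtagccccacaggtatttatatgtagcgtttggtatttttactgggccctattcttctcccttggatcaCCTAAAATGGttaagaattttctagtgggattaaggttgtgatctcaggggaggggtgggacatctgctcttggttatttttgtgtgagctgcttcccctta
The Xirp2 window holds the MEF2 site CTAAAAATAG, whose first base lies 74 bases before the start, and the Ttn window holds CTAAATTTAG at 166 bases before it. In Fhl2 a CArG box (CCAAAAAAGG) at 96 bases before the start is followed by a MEF2 site (TTATTTATAA) at 31 bases. The capitals in the Ldb3 and Fhl1 windows mark CArG boxes, CCATTTATGG at 35 bases and CCTAAAATGG at 102 bases before the start. Searched on both strands, a CArG box was present in 6 windows of 4 of the 9 genes (Nebl, Ldb3, Fhl1 and Fhl2), where overlapping windows of Ldb3 share 1 site, against 1.63% of all 32851 RefSeq windows of this length. A MEF2 site was present in 3 windows of 3 genes against 3.19% of all windows. Other motifs were searched in the same 16 windows. The GATA motif was in 5 (25.4% of all windows), the M-CAT motif in 2 (14.7%) and the E-box in 13 (72.3%). The TATA box, searched on the strand of the gene only, was in 0 (8.32%). A match describes letters in a window and says nothing of binding in these samples.

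Gene totals ranged from 10711442 to 17223580 counts per library, and the smallest count of any member in any library was 1178, for Xirp2. Chrna7 itself had 0 to 4 counts per library in all 4 groups, so its level does not check the genotype labels. The KO sham libraries were set apart from the other 12 by principal component 1 (25.5% of variance). They were also low in atrial, mesothelial and red cell markers: the 7 atrial genes summed to 321 to 672 CPM (counts scaled to library size) in KO sham against 773 to 3554 in WT sham, and the 8 mesothelial genes to 27.7 to 35.3 CPM against 95.8 to 147. The part of these differences in any result that uses KO sham was not tested. A fit with the atrial level as a covariate was run, and its values are given beside the results it changed. It used an atrial index, not the 7-gene sum. This index was 4.71 to 5.90 in KO sham, below the 6.35 to 8.39 of WT sham. Because these ranges do not overlap, the adjusted difference of KO against WT after sham rests on a slope shared by all groups. That slope is carried across a gap in which neither sham group has a sample, so the adjusted value cannot be checked at a common atrial level. The interaction contains this same difference. In the KO MI group, replicate 4 had the lowest share of reads in no feature of all libraries (23.7%) and the lowest summed level of 20 cardiomyocyte markers (90270 CPM). The summed level of Y-linked genes was 1.73 CPM in WT sham 1, 2.13 in KO sham 2 and 2.74 in KO MI 1. It was 152 to 231 CPM in all other libraries, so WT MI was the group with no such low library. In bulk tissue, fewer cardiomyocytes and less RNA of a gene per cardiomyocyte cannot be told apart.

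By mean CPM per kilobase of exon, the 10 genes stood between percentile 76.4 (Nebl) and percentile 99.7 (Actn2) of the genes tested. The length used is the union of all annotated exons of a gene, so the order depends on that choice. Per kilobase of exon, Actn2 was highest (805 ± 98.3 CPM per kb, SD, n = 16), followed by Fhl2 (670 ± 142), Csrp3 (346 ± 26.3) and Des (322 ± 31.1). Ldb3 (94.3 ± 14.1) and Xirp1 (55.7 ± 8.83) came next. Ttn, whose exons span 116825 bases, had 32.0 ± 5.59 CPM per kb and Fhl1 31.1 ± 5.18, followed by Xirp2 (15.3 ± 5.68) and Nebl (12.7 ± 3.56). The pooled ranges of mean ± SD overlapped for the neighbours Actn2 and Fhl2, Csrp3 and Des, Ttn and Fhl1, and Xirp2 and Nebl. These ranges ignore that the genes were measured in the same libraries, and the order within libraries was not tested. Actn2 was below Fhl2 in WT sham replicate 2 (933 against 947 CPM per kb) and above it in every other library. The summed share of the 10 genes in all gene counts was 1.22 ± 0.047% after sham and 1.16 ± 0.051% after infarction for WT, and 1.21 ± 0.040% and 1.04 ± 0.12% for KO (SD, n = 4 each).

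**Figure D1:**
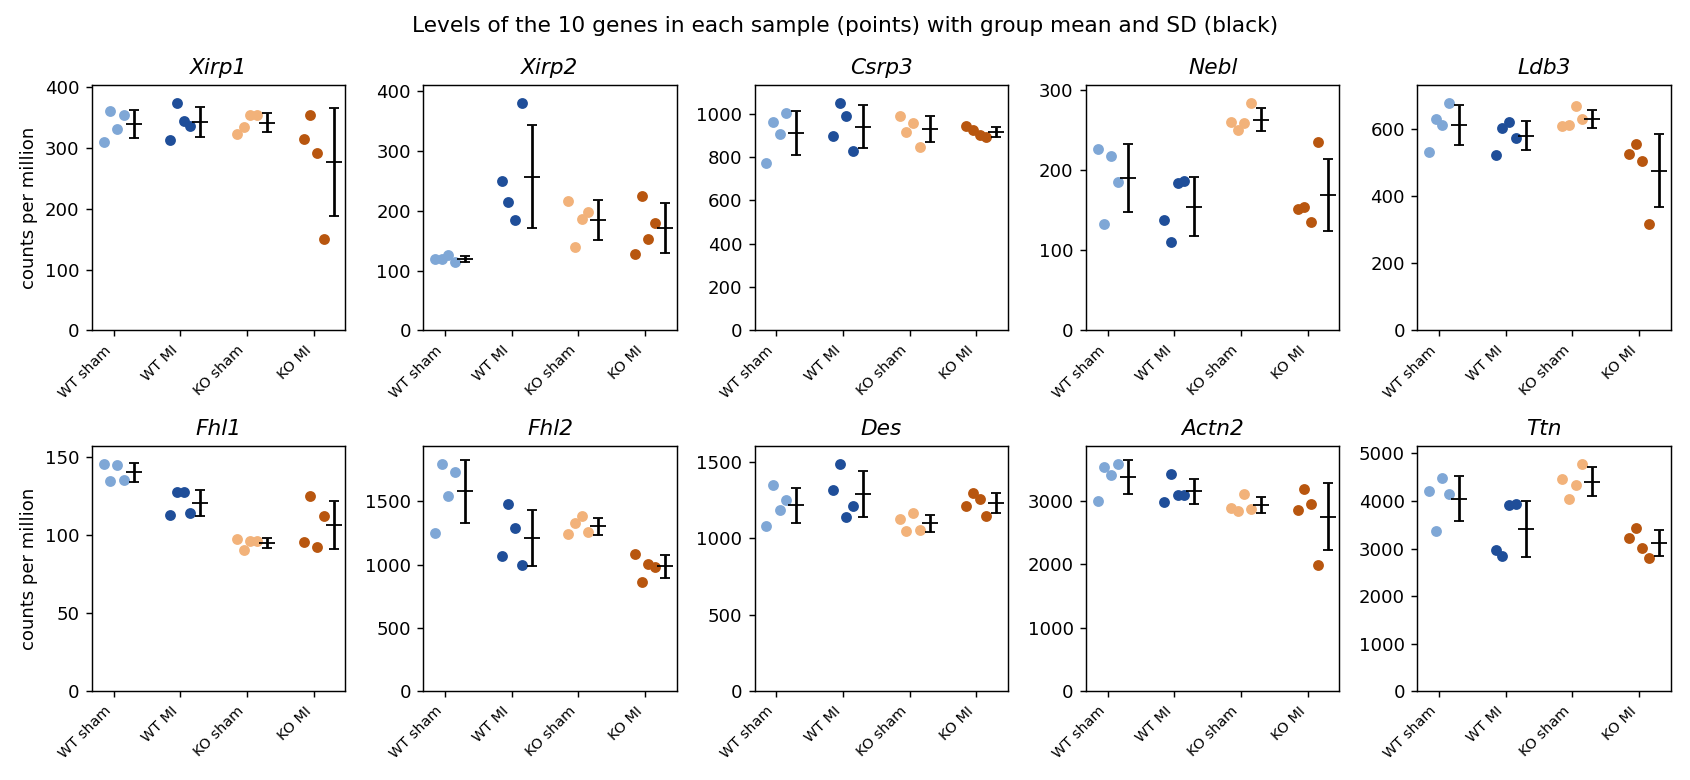
Level in CPM (y axis, from 0) of each of the 10 genes in each sample (points) by group (x axis), with the group mean and SD of 4 samples in black. Xirp2 in WT MI (184 to 380.5 CPM) lies above all WT sham samples (114 to 127), Fhl1 in KO sham (90.3 to 97.7) below all WT sham samples (135 to 145), and KO MI replicate 4 is low for Xirp1, Ldb3 and Actn2.

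After infarction in wild-type mice 1 of the 10 genes rose, Xirp2, and none fell; over all 13412 genes tested, 2.25% were called in this comparison (edgeR quasi-likelihood test, Benjamini-Hochberg adjusted p below 0.05). Here and below, counts of genes that rose or fell are counts of genes called. Xirp2 stood at 119, 120.0, 127 and 114 CPM in WT sham replicates 1 to 4. In WT MI it stood at 251, 215, 184 and 380.5 CPM. Every infarcted sample lay above every sham sample, and the infarcted group was the more widely spread. The log2 fold change was 1.10 ± 0.20 (SE; 2.15-fold; 95% interval 0.68 to 1.53; edgeR adjusted p = 0.00803), and it passed in all 12 other settings tried and with any 1 of the 16 libraries left out (log2 0.85 to 1.23). The lowest of these values came without WT MI replicate 4, the highest Xirp2 sample.

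Its relative Xirp1, the other Xin repeat protein, averaged 339 ± 23.6 CPM in WT sham and 342 ± 24.9 in WT MI (SD, n = 4), a log2 difference of 0.01 that did not pass, with a 95% interval from -0.33 to 0.36. The LIM-only proteins, which carry signals between the sarcomere and the nucleus, were both lower on average without passing the test. Fhl2 went from 1581 ± 247 to 1210 ± 219 CPM (log2 -0.39 ± 0.12, edgeR adjusted p = 0.116), with overlapping groups. Fhl1 went from 140 ± 5.87 to 121 ± 8.19 CPM with no overlap (log2 -0.22 ± 0.09, edgeR adjusted p = 0.245); 8.22% of all genes did not overlap between these groups. Ttn (log2 -0.25 ± 0.12), Nebl (-0.30 ± 0.19), Actn2 (-0.10 ± 0.11), Ldb3 (-0.08 ± 0.13), Csrp3 (0.05 ± 0.09) and Des (0.08 ± 0.09) did not pass either. The median over the 10 genes was -0.09, against -0.01 over all genes tested.

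Around the members, the counts of genes called in wild type are read against the 2.25% of all genes called in this comparison. Of 25 other Z-disc genes only the PDZ and LIM protein Pdlim3 was called (log2 -0.42 ± 0.10, edgeR adjusted p = 0.0252). Of 21 intercalated disc genes tested, only the desmosomal cadherin Dsg2 was called (-0.37 ± 0.10, edgeR adjusted p = 0.0492). Of 10 titin-bound stretch and turnover genes, the ubiquitin ligase Trim54 rose (0.62 ± 0.11, edgeR adjusted p = 0.00500) and its relative Trim55 fell by 0.50 on the log2 scale (edgeR adjusted p = 0.00275). Markers of other cells moved in the same samples: 5 of 11 macrophage genes rose, with summed levels of 201 to 300 CPM against 130 to 154 in sham, and 5 of 7 red cell genes fell. Their part in the Xirp2 difference was not tested.

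After infarction in knockout mice 4 of the 10 genes fell, Ttn, Nebl, Ldb3 and Fhl2, and none rose; the background was larger here, with 16.6% of all genes called. Ttn stood at 4461, 4032, 4340.5 and 4780 CPM in KO sham and at 3213, 3439, 3002 and 2799 CPM in KO MI, with no overlap. Its log2 fold change was -0.50 ± 0.12 (1.41-fold lower, edgeR adjusted p = 0.00812). The call held with any 1 library left out. It ended when the fit was corrected for length and GC content of transcripts, which gave -0.08 (edgeR adjusted p = 0.593); at 116825 bases of exon, Ttn is the longest of the 10.

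Nebulette, a Z-disc protein that also binds actin thin filaments, stood at 259, 249.5, 259 and 283 CPM in KO sham. In KO MI it stood at 152, 154, 135 and 235 CPM, all below the sham samples, with replicate 4 close to them. The log2 fold change was -0.64 ± 0.19 (1.56-fold lower, edgeR adjusted p = 0.0298), and -0.84 without replicate 4 of KO MI. Ldb3, the PDZ and LIM adaptor of alpha-actinin, stood at 609.8, 613, 668 and 632 CPM in KO sham and at 526, 556, 507 and 318 CPM in KO MI. Its log2 fold change was -0.40 ± 0.13 (edgeR adjusted p = 0.0351), which shrank to -0.26 (edgeR adjusted p = 0.0334) without KO MI replicate 4, the lowest sample. Fhl2 stood at 1245, 1331, 1387 and 1256 CPM in KO sham and at 1087, 866, 1009 and 981 CPM in KO MI, a log2 fold change of -0.40 ± 0.12 (edgeR adjusted p = 0.0302). The calls of Nebl, Ldb3 and Fhl2 were less stable than that of Ttn: they held in 9, 11 and 11 of the 16 fits with 1 library left out. Those that ended the Nebl call left out any KO sham library or KO MI replicate 1, 2 or 3, for Ldb3 any KO sham library or KO MI replicate 3, and for Fhl2 KO sham replicate 2, 3 or 4 or KO MI replicate 2 or 3. With the atrial level as a covariate, Ldb3 (log2 -0.31, edgeR adjusted p = 0.146) and Fhl2 (-0.31, edgeR adjusted p = 0.133) no longer passed, while Nebl (-0.88) and Ttn (-0.54) did. Without the 3 libraries low in Y-linked reads (WT sham 1, KO sham 2 and KO MI 1), 2 members were called: Ttn (-0.56) and Fhl2 (-0.45) passed, and Nebl (-0.61, edgeR adjusted p = 0.0978) and Ldb3 (-0.47, edgeR adjusted p = 0.0577) did not. The Nebl call also ended with no filter on low counts (edgeR adjusted p = 0.0537), and the Ldb3 call with only the 8 samples compared in the fit (edgeR adjusted p = 0.0675).

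The other 6 genes did not pass in knockout mice. Xirp2, the gene that rose in wild type, stood at 217, 139.5, 186 and 198 CPM in KO sham and at 127, 225, 154 and 180.0 CPM in KO MI. These groups overlapped fully, with a log2 difference of -0.11 ± 0.20 (95% interval -0.53 to 0.31). Xirp1 (log2 -0.30 ± 0.16) and Actn2 (-0.09 ± 0.11) were low mainly in replicate 4 of KO MI, at 150 and 1992 CPM against at least 292 and 2865 CPM in the other 3. Without that library their log2 differences were -0.10 and 0.03. Csrp3 (log2 -0.02 ± 0.09), Des (0.16 ± 0.09) and Fhl1 (0.16 ± 0.09) showed no call. The median over the 10 genes was -0.20 against 0.01 over all genes tested, and 23.9% of all genes did not overlap between these groups.

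The neighbouring genes are read against the 16.6% of all genes called in this comparison. At the intercalated disc, 12 of 21 genes fell and none rose, among them Dsg2 (log2 -0.75 ± 0.10), N-cadherin Cdh2 (-0.50 ± 0.09), Dsc2 (-0.52 ± 0.09) and alpha-catenin Ctnna1 (-0.44 ± 0.09). Of 25 other Z-disc genes, 9 fell, including Pdlim5 (-0.43 ± 0.09), the formin Fhod3 (-0.35 ± 0.08), telethonin Tcap (-0.41 ± 0.11) and Synpo2 (-0.41 ± 0.12), and Pdlim7 rose (0.31, a gene picked out after its value was seen). Among 16 tested muscle transcription factors and co-factors 5 fell, with Mef2a at -0.60 ± 0.15 and the MEF2 repressor Hdac4 at -0.68 ± 0.13, and Hand2 rose. Markers of other cells moved here too: all 8 mesothelial genes and 9 of 11 macrophage genes rose, while 5 of 20 cardiomyocyte genes fell and none rose. The mesothelial rise was measured from the low KO sham group. Its median 8-gene sum was 30.9 CPM, against 83.1 for KO MI and 102 for WT sham. The macrophage sum was not low in that group (median 169 CPM, against 142 for WT sham). The part of these marker changes, and of the low KO sham levels, in the members' results was not tested.

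**Figure D2:**
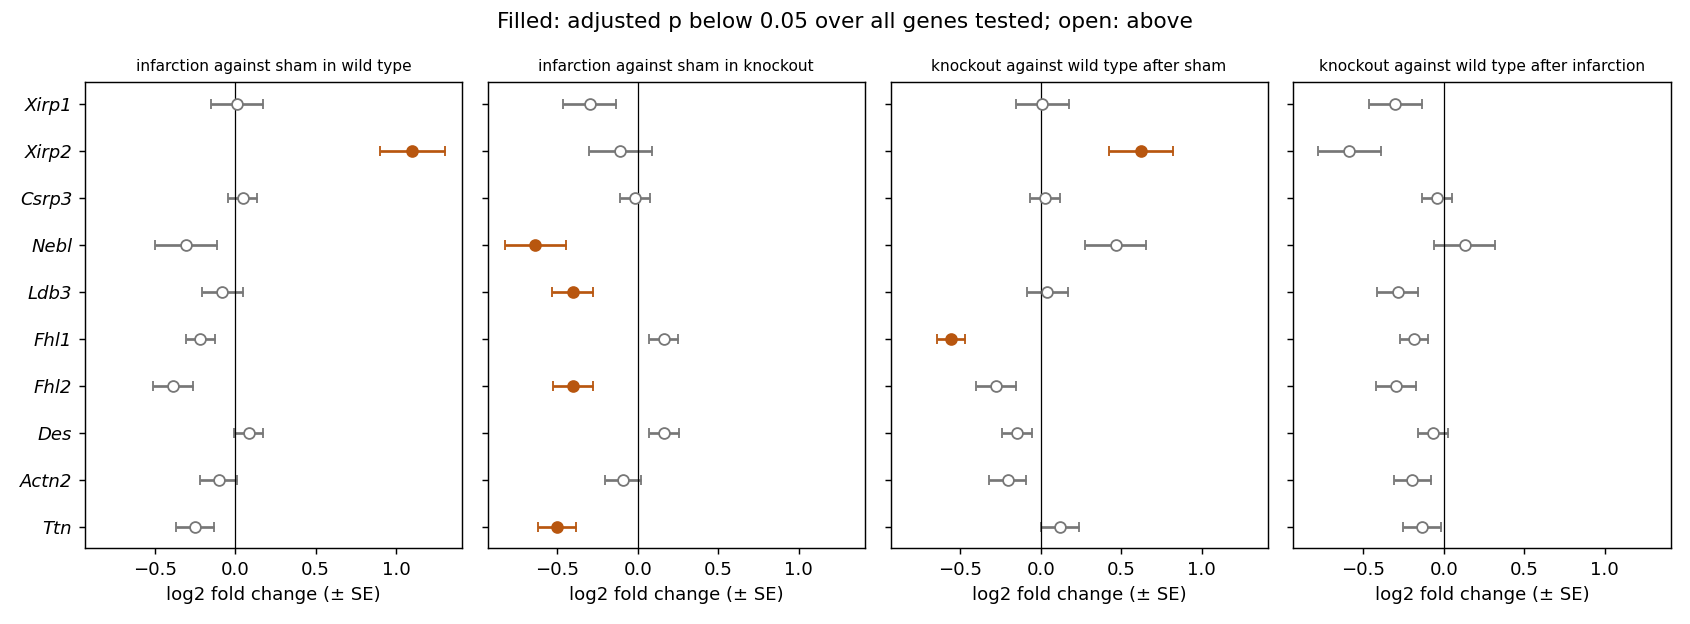
Log2 fold change (x axis, ± SE from edgeR) of each gene (y axis) in 4 comparisons; filled points have an adjusted p below 0.05 over all 13412 genes tested. Xirp2 is filled for infarction in wild type (1.10) and for KO against WT after sham (0.62), Fhl1 for KO against WT after sham (-0.56), and Ttn, Nebl, Ldb3 and Fhl2 for infarction in knockout.

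After sham surgery the knockout differed from wild type in 2 of the 10 genes: Fhl1 was lower and Xirp2 higher, where 15.3% of all genes were called. Fhl1, a LIM-only protein of the sarcomere encoded on chromosome X, stood at 145, 135, 145 and 135 CPM in WT sham. In KO sham it stood at 97.7, 90.3, 95.8 and 96.3 CPM. Each group was narrow and the gap between them was wide, giving a log2 difference of -0.56 ± 0.09 (1.47-fold lower, edgeR adjusted p = 0.000401). It passed in all other settings except the fit with the atrial level, which gave -0.37 (edgeR adjusted p = 0.0850). Without the 3 libraries low in Y-linked reads it was -0.52 (edgeR adjusted p = 0.00769). In that same comparison all 8 mesothelial, all 7 red cell and 6 of 7 atrial genes were called lower in KO sham, and all 7 atrial genes had negative log2 differences.

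Xirp2 in KO sham (139.5 to 217 CPM) lay above all WT sham samples, a log2 difference of 0.62 ± 0.20 (1.54-fold, edgeR adjusted p = 0.0436). This call stood close to the threshold: it held in 6 of 16 fits with 1 library left out and in 7 of 12 other settings, and the length and GC correction gave 0.44 (edgeR adjusted p = 0.122) and the atrial covariate 0.74 (edgeR adjusted p = 0.171). It also ended under limma voom with quality weights, with no filter on low counts and with a replicate block. Among the libraries whose removal ended it were all 4 WT sham libraries, KO sham replicates 1, 3 and 4, WT MI replicate 1 and KO MI replicates 3 and 4. Nebl was also higher in every KO sham sample than in any WT sham sample (263 ± 14.5 against 190 ± 42.6 CPM) but did not pass (log2 0.47 ± 0.19, edgeR adjusted p = 0.101); 26.3% of all genes did not overlap here. Ttn (log2 0.12 ± 0.12), Fhl2 (-0.28 ± 0.12), Actn2 (-0.21 ± 0.11), Des (-0.15 ± 0.09), Ldb3 (0.04 ± 0.13), Csrp3 (0.03 ± 0.09) and Xirp1 (0.01 ± 0.16) were not called. Of the 25 other Z-disc genes, Pdlim7 (log2 -0.68 ± 0.10), Pdlim3 (-0.68 ± 0.10) and Myoz1 (-1.06 ± 0.30) were lower in KO sham, and of the 21 intercalated disc genes Dsg2 (0.60 ± 0.10), Dsc2 (0.52 ± 0.09), Tmem65 and Tjp1 were higher. Myoz1 was weakly expressed, with a mean of 3.06 CPM in WT sham and 1.47 in KO sham.

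After infarction none of the 10 genes was called between knockout and wild type, and only 2 of all 13412 genes were (0.0149%); 638 had an unadjusted p under 0.05, and DESeq2 also called none of the 10. Xirp2 averaged 172 ± 41.7 CPM in KO MI and 258 ± 86.3 in WT MI, a log2 difference of -0.59 ± 0.20 (unadjusted p = 0.00876, edgeR adjusted p = 0.873), with overlapping samples. Ldb3 (log2 -0.28 ± 0.13), Fhl2 (-0.30 ± 0.12) and Xirp1 (-0.30 ± 0.16) were next in size. No member separated the groups completely, and 2.11% of all genes did.

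Whether infarction acted differently by genotype was tested directly as an interaction, with 2.74% of all genes called. Of the 10 genes only Xirp2 passed: its response was 1.21 ± 0.28 log2 units smaller in knockout than in wild type, an interaction of -1.21 (edgeR adjusted p = 0.0282). Leaving out any 1 library gave -1.37 to -0.96, and the call held in 7 of 16 such fits; it also ended with no filter on low counts and with the atrial level as a covariate (log2 -1.31, edgeR adjusted p = 0.0929). The libraries whose removal ended it were WT sham replicates 2, 3 and 4, KO sham replicates 1, 3 and 4, WT MI replicate 1 and KO MI replicates 3 and 4. Fhl1 had an interaction of 0.37 ± 0.13 that did not pass (edgeR adjusted p = 0.113), and the calls of Ttn, Nebl, Ldb3 and Fhl2 in knockout alone were not matched by an interaction (log2 -0.25, -0.33, -0.32 and -0.02, each with an edgeR adjusted p of at least 0.355).

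Averaged over both genotypes, 4 of the 10 genes were called, against 13.5% of all genes. Fhl2 fell by 0.39 on the log2 scale (edgeR adjusted p = 0.00584) and stayed called in every setting tried. Ttn fell by 0.37 (edgeR adjusted p = 0.00619), or by 0.05 with the length and GC correction. Nebl fell by 0.47 (edgeR adjusted p = 0.0278), and Xirp2 rose by 0.50 (edgeR adjusted p = 0.0274), an average of unequal responses in the 2 genotypes. With 1 library left out, the Nebl call held in 8 of 16 fits and ended without WT sham 1 or 3, KO sham 4, WT MI 1 or 2, or KO MI 1, 2 or 3. The Xirp2 call held in 12 and ended without WT sham 4, KO sham 2, KO MI 2 or KO MI 4. With no filter on low counts neither passed (edgeR adjusted p = 0.0518 for Nebl and 0.0519 for Xirp2). The Nebl call also ended without the 3 libraries low in Y-linked reads (log2 -0.41), and the Xirp2 call under limma voom with quality weights (log2 0.43). Xirp1, Csrp3, Des and Actn2 were called in none of the 6 comparisons.

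**Figure D3:**
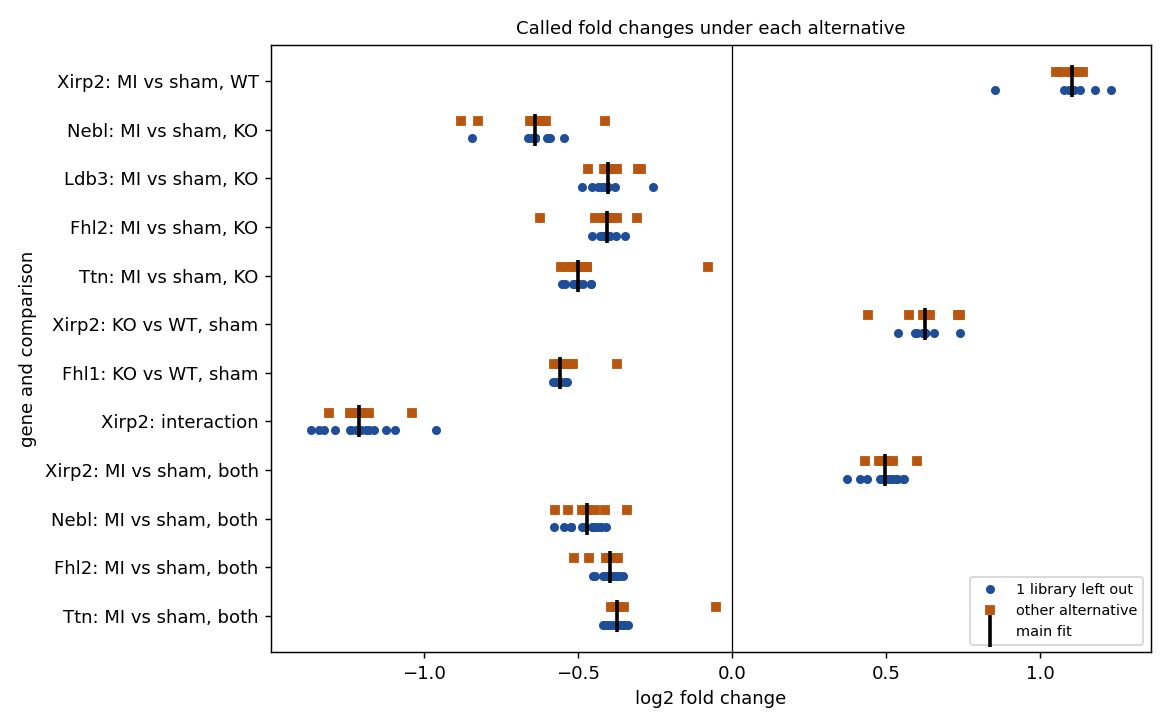
Log2 fold change (x axis) of each called gene and comparison (y axis): the black bar is the reported fit, blue points leave out 1 library and orange squares are the other alternatives. Xirp2 in wild type stays between 0.85 and 1.23, while Ttn moves to -0.08 (knockout) and -0.05 (both genotypes) in 1 alternative, the length and GC correction.

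The 10 genes did not vary as 1 block across the 16 samples. Of 45 pairs of genes, 8 had a pooled Pearson correlation with an adjusted permutation p below 0.05, and 7 after each sample was set against its own group mean. The share of such pairs among all genes tested was not computed, so these counts do not set the members apart from other genes. The closest trio was Xirp1, Ldb3 and Actn2, which are all lowest in KO MI replicate 4. Xirp1 with Ldb3 had r = 0.94 and Spearman rho = 0.78 (permutation p = 6e-05 and 0.00054, adjusted 0.00135 and 0.0081). The r of this pair within groups was 0.96, with KO MI replicate 4 included. Without KO MI replicate 4 the pooled r of this pair was 0.77, that of Xirp1 with Actn2 went from 0.89 to 0.59 and that of Ldb3 with Actn2 from 0.85 to 0.47. The r within groups was not computed without that library. Without the 2 samples farthest from the median of Xirp1, r of Xirp1 with Ldb3 was 0.69. The Spearman rho of Ldb3 with Actn2 was 0.52 (adjusted permutation p = 0.123). Nebl and Des ran in opposite directions, with r = -0.90 and rho = -0.88 (permutation p = 2e-05 and 1e-05, adjusted 0.0009 and 0.00045), r = -0.84 without the 2 farthest samples and -0.85 within groups. The smallest p these permutations can give is 1e-05. Nebl has the lowest GC content of the 10 transcripts (40.1%) and Des one of the highest (56.5%); the part of GC content in this relation was not tested.

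**Figure D4:**
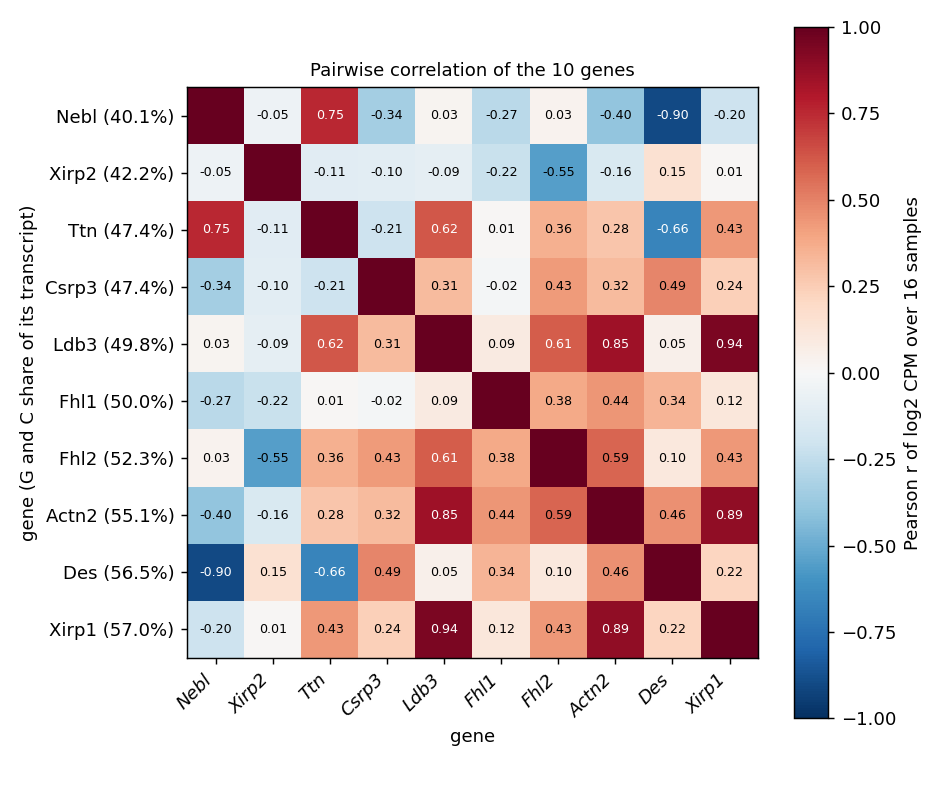
Pearson correlation of log2 CPM over 16 samples (colour, from -1 to 1) for each pair of the 10 genes, ordered on both axes by the GC content of the transcript. Nebl and Des are opposed (-0.90), Xirp1, Ldb3 and Actn2 have values of 0.85 to 0.94 (0.47 to 0.77 without KO MI replicate 4), and Xirp2 has no value above 0.15 and -0.55 with Fhl2.

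Over all genes tested, those most like each member by Pearson correlation of log2 CPM over the 16 samples differed from member to member. For Xirp2 they were Ltbp2 (r = 0.84), Cilp (0.83) and Col8a1 (0.81), 3 genes of the extracellular matrix. For Ttn they were ankyrin Ank2 (0.95), the titin splicing factor Rbm20 (0.94) and the ryanodine receptor Ryr2 (0.94), and for Fhl2 Tnni3k (0.93), Atp5b (0.92) and P4htm (0.90). Nebl was closest to Qk (0.99), Trip11 (0.98) and Prkaa2 (0.98), Fhl1 to Aif1l (0.93), Camk1g and Armh4 (0.91 each), and Xirp1 to Atxn2 (0.96), Zdhhc8 (0.95) and Ldb3. Ldb3 was closest to Tmem63b (0.96), Cluh and Ncoa6 (0.95 each), Actn2 to Wfs1 (0.95), BC034090 (0.94) and Med24 (0.93), Des to Klhdc4 (0.93), Slc25a39 and Il17rc (0.91 each), and Csrp3 had Mpst and Ric8a (0.84 each) among its closest. Xirp1, Ldb3 and Actn2 are all lowest in KO MI replicate 4. Apart from Xirp1 with Ldb3 (0.77), the r values of their closest genes were not computed without that library.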

How the data were processed

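Polyadenylated RNA of 16 ventricle samples was sequenced on the Illumina HiSeq 4000. Per the submitters' processing notes, the build was GRCm39 and the tools included HISAT2 2.2.1, HTSeq 0.13.5, cutadapt 3.4 and bcl2fastq 2.17, besides DESeq2 and FastQC; the annotation release and strand setting are not given in the sources used here. The authors deposited raw counts per Ensembl gene. The 5 lines of no gene (no feature: 23.7 to 28.2% of reads per library; ambiguous: 1.56 to 2.08%) were left out.

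Groups came from the labels. Genes were filtered with filterByExpr, scaled by TMM and fitted over all 16 samples (12 residual degrees of freedom) by edgeR 4.0.16 in R 4.3.3, with robust quasi-likelihood tests and Benjamini-Hochberg adjustment over 13412 genes. Alternatives used DESeq2 1.42.0, limma 3.58.1 (voom), other scalings and filters, a length and GC correction (GENCODE M21 on GRCm38) and left-out libraries. The script was tested on simulated counts. Libraries of 1 group differed beyond counting error (chi-square per degree of freedom 3.87 to 69.96). The upper end came from KO MI replicate 4, whose pairs with the other KO MI libraries gave 57.8 to 69.96. All other pairs gave at most 21.7, and pairs of KO sham libraries gave 3.87 to 5.99. Members and gene lists were chosen with earlier results of these data known. Named genes are the 10 members, up to 4 genes per list with the smallest p in a comparison, and the 3 genes most correlated with each member, of which 1 is not reported here. Gene names matched 22362 of 22468 IDs. Annotated antisense genes overlap Des, Xirp2 and Ttn; they have no row in the table.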

Additional observations from a re-analysis of the deposited data

Results flagged for a closer look

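The response of Xirp2 to infarction differed between the genotypes in the test of that difference: the log2 response in knockout minus that in wild type was -1.21 ± 0.28 (edgeR adjusted p = 0.0282). The call held in 7 of 16 fits with 1 library left out, and ended with no filter on low counts and with the atrial covariate. Knockout against wild type was 0.62 after sham, where KO sham stood apart from the other groups. After infarction it was -0.59 (edgeR adjusted p = 0.873). Xirp2 was higher in 4 of 4 WT MI samples than in any WT sham sample, while KO MI and KO sham samples overlapped. Ldb3 in KO MI replicate 4, at 318 CPM against 507 to 556 in the other 3 KO MI samples, stood far from its group by Dixon's criterion on the log2 scale (gap to range ratio 0.834, just above the critical value) but not on the CPM scale. It was the 1 such sample in 40 groups of 4 values (10 genes in 4 groups), where chance marks about 1 group in 20.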

How the results depend on the processing

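Of the 12 calls on members shown in the plot of alternatives, the Xirp2 rise in WT and the fall of Fhl2 averaged over genotypes passed in every alternative. Ttn (in KO and averaged) failed under the length and GC correction alone, Fhl1 in KO sham failed with the atrial level as a covariate alone, and the others ended under several. The fits without the 3 libraries low in Y-linked reads (WT sham 1, KO sham 2 and KO MI 1) and with the atrial level were chosen after seeing the data. Unless the setting itself shows it (fewer samples or genes), the cause of a change was not tested. The reported counts over all genes were 302 (infarction in WT), 2220 (infarction in KO), 2057 (KO against WT after sham), 2 (KO against WT after infarction), 368 (interaction), 1811 (infarction averaged over genotypes). Setting DESeq2: all genes called were 500 (infarction in WT), 11 (KO against WT after infarction), 627 (interaction). Setting limma voom with sample quality weights: all genes called were 495 (infarction in WT), 4796 (infarction in KO), 3901 (KO against WT after sham), 1524 (interaction), 3284 (infarction averaged over genotypes) and members called were 2 (infarction in WT), 4 (KO against WT after sham). Setting no filter on low counts: members called were 1 (KO against WT after sham), 0 (interaction), 2 (infarction averaged over genotypes). Setting without haemoglobin and mitochondrially encoded genes: all genes called were 1 (KO against WT after infarction). Setting length and GC correction: members called were 1 (KO against WT after sham). Setting only the 8 samples compared: all genes called were 185 (infarction in WT), 3211 (KO against WT after sham), 1 (KO against WT after infarction) and members called were 4 (KO against WT after sham). Setting without the 3 libraries low in Y-linked reads: all genes called were 166 (infarction in WT), 1291 (infarction in KO), 1237 (KO against WT after sham), 1 (KO against WT after infarction), 217 (interaction), 1012 (infarction averaged over genotypes) and members called were 2 (infarction in KO). Setting atrial index as a covariate: all genes called were 197 (infarction in WT), 842 (KO against WT after sham), 112 (interaction) and members called were 2 (infarction in KO), 1 (KO against WT after sham), 0 (interaction). Uncalled log2 differences turned in sign under limma voom with sample quality weights, to Csrp3 0.000680, Nebl -0.12, Des 0.00354 (KO against WT after infarction), Fhl2 0.0379 (interaction), Csrp3 -0.00268 (infarction averaged over genotypes). Uncalled log2 differences turned in sign under upper quartile scaling, to Csrp3 0.00941 (infarction in KO). Uncalled log2 differences turned in sign under without haemoglobin and mitochondrially encoded genes, to Actn2 -0.0138 (interaction). Uncalled log2 differences turned in sign under length and GC correction, to Xirp1 -0.00301 (infarction in WT), Xirp2 0.0825 (infarction in KO), Ldb3 -0.00267, Ttn -0.00254 (KO against WT after sham), Actn2 -0.0337 (interaction), Csrp3 -0.0622 (infarction averaged over genotypes). Uncalled log2 differences turned in sign under without the 3 libraries low in Y-linked reads, to Xirp1 -0.0290, Csrp3 -0.0251 (infarction in WT), Xirp1 -0.0209, Csrp3 -0.0375, Ldb3 -0.00857 (KO against WT after sham), Fhl2 0.0376 (interaction), Csrp3 -0.0333 (infarction averaged over genotypes). Uncalled log2 differences turned in sign under atrial index as a covariate, to Xirp1 -0.0620 (infarction in WT), Csrp3 0.0230, Actn2 0.00154 (infarction in KO), Xirp1 -0.25, Csrp3 -0.0620, Ldb3 -0.18 (KO against WT after sham), Csrp3 0.000916, Fhl2 0.13 (interaction). With 1 library left out, all genes called ranged over 86 to 565 (infarction in WT), 1230 to 2931 (infarction in KO), 1298 to 2881 (KO against WT after sham), 1 to 4 (KO against WT after infarction), 178 to 817 (interaction), 1201 to 2676 (infarction averaged over genotypes). Members called ranged over 1 to 2 (infarction in WT), 1 to 4 (infarction in KO), 1 to 2 (KO against WT after sham), 0 to 1 (interaction), 2 to 4 (infarction averaged over genotypes). Uncalled log2 differences that changed sign in such fits (infarction in WT) were Xirp1 -0.0352 to 0.0466, Csrp3 -0.0252 to 0.10. Uncalled log2 differences that changed sign in such fits (infarction in KO) were Xirp2 -0.27 to 0.00979, Csrp3 -0.0624 to 0.00922, Actn2 -0.17 to 0.0299. Uncalled log2 differences that changed sign in such fits (KO against WT after sham) were Xirp1 -0.0319 to 0.0362, Csrp3 -0.0432 to 0.0785, Ldb3 -0.0221 to 0.0922. Uncalled log2 differences that changed sign in such fits (KO against WT after infarction) were Csrp3 -0.0966 to 0.0168, Nebl -0.0709 to 0.23, Des -0.12 to 0.00659. Uncalled log2 differences that changed sign in such fits (interaction) were Csrp3 -0.12 to 0.00400, Fhl2 -0.10 to 0.0915, Actn2 -0.0658 to 0.14. Uncalled log2 differences that changed sign in such fits (infarction averaged over genotypes) were Csrp3 -0.0232 to 0.0412, Fhl1 -0.0747 to 0.00219. The replicate numbers showed no clear pairing of the samples: same-numbered samples of different groups had correlations of -0.097 to 0.475 in their deviations, with 4 of 24 above 0.1, and 16 of 48 best matches fell on the own number. The highest was that of WT sham 2 with WT MI 2. These values cannot exclude a pairing, and the labels do not state any. With a replicate block 297 (infarction in WT), 2413 (infarction in KO), 2202 (KO against WT after sham), 3 (KO against WT after infarction), 350 (interaction), 1995 (infarction averaged over genotypes) genes were called, Nebl passed in KO against WT after sham (log2 0.48, edgeR adjusted p = 0.0418), Xirp2 there did not (log2 0.62, edgeR adjusted p = 0.0550), and no other member's call changed. The smallest member count in any library was 1178; depth was not varied.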
